A study of Homo sapiens with 66 samples.

Results

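AP-1 is a transcription factor built as a dimer of basic leucine zipper proteins, with a FOS or ATF protein bound to a JUN protein. The 8 genes described here encode its subunits, namely FOS, FOSB, FOSL1 and FOSL2 of the FOS family, JUN, JUNB and JUND of the JUN family, and ATF3. They were chosen as a named list and matched by symbol to the Ensembl identifiers of the deposited count tables, so they make 8 of the 58051 genes counted, and all 8 passed the filter on low counts. FOS, FOSB, JUN, JUNB and ATF3 are immediate early genes: growth factors, stress and MAP kinase signalling turn on their transcription within minutes and without new protein synthesis, and their mRNAs are short-lived. FOSL1 and FOSL2 follow more slowly, and JUND is present in most resting cells. In epithelial cells AP-1 carries signals of proliferation, stress and wound repair to its target genes.

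The study asked which RNAs change when a protein of the nuclear pore basket, or of the mRNA export machinery docked there, is removed within hours. RNA was depleted of ribosomal RNA and sequenced as total RNA in 66 libraries of DLD-1, a human colorectal cancer cell line, in 22 groups of 3. Each tagged line is a CRISPR-edited clone whose own protein carries an auxin-inducible degron (AID) on both alleles, and the plant F-box protein TIR1, placed at the C-terminus of RCC1, marks that protein for destruction once auxin is added. The labels name the genotypes AID-NeonGreen-TPR, NUP153-NeonGreen-AID, NUP50-NeonGreen-AID, GAP1-NeonGreen-AID (RANGAP1), AID-FLAG-NXF1, AID-HA-GANP1 (GANP, gene MCM3AP) and original, the untagged cells. TPR, NUP153 and NUP50 are basket nucleoporins, GANP is the scaffold of the TREX-2 export complex, NXF1 is the general mRNA export receptor, and RANGAP1 drives GTP hydrolysis by Ran. Auxin was given at 1 mM to the tagged lines for 2 h (TPR, NXF1, NUP153, RANGAP1) or 3 h (GANP, NUP50), and for 8 h (TPR, NUP153, RANGAP1) or 9 h (NUP50), and each line has its own untreated libraries. The AID-TPR libraries form a plain set (untreated, auxin 2 h) and a set whose replicates are named old (untreated, auxin 2 h and 8 h). A further 6 AID-TPR libraries received actinomycin D (ActD), which blocks transcription, for 2 h with or without auxin, and untagged DLD-1 cells received auxin for 2 h.

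Libraries held between 18943661 and 55411411 counted reads. All 7 epithelial colon markers had a median above 1 CPM (reads scaled to library size), whereas of 9 markers of other cell types only VWF did, and the 9 together summed to between 2.44 and 12.5 CPM. Since auxin removes proteins, the mRNA of the tagged gene is no check of depletion; it did not pass the fold threshold in any line. Counting was not uniform, as 24 libraries held no counts for mitochondrial genes, 33 held those but none for RMRP, and 9 held both; the plain and old AID-TPR sets differ in this way, and the ActD libraries resemble the old set. Within the old set, 2 libraries went against their labels. Of 1294 genes that separated 8 h from 2 h of auxin in replicates old1 and old3, the library labelled auxin 2 h old2 lay nearer the 8 h values for 91.5%, and the library labelled auxin 8 h old2 for 5.1%. Most tests of members in the old set are therefore given with and without these libraries. In such bulk libraries a lower share of expressing cells and less RNA per cell cannot be told apart.

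The genes lie on 5 chromosomes (GRCh38). FOS (ENSG00000170345) is at chr14:75278826-75282230 on the plus strand, JUN (ENSG00000177606) at chr1:58776845-58784048 on the minus strand and ATF3 (ENSG00000162772) at chr1:212565334-212620777 on the plus strand. JUN, JUNB and JUND have a single exon, and the canonical transcripts of the other 5 genes have 4 exons. JUNB shares 259 of its 1830 exonic bases with HOOK2 on the other strand; whether counting used strand is not given in the sources used here, so reads in that stretch could not be assigned with certainty.

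The sequences below show what JUN shares with ATF3, and what FOS shares with FOSL2 at the 3′ end. RefSeq promoter windows (GRCh38.p14, 250 bases before to 50 after each start site) were found for 7 of the 8 genes, ATF3 having 2; none matched FOSL1. They were searched on both strands for the AP-1 site TGACTCA, the cAMP response element TGACGTCA, the variant TGACATCA and the core TGACG, which is also part of TGACGTCA, and on the gene's strand for TATAA. In the windows printed here capitals mark the motif.
JUN promoter, minus strand, chr1:58784096-58784125: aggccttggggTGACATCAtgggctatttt
ATF3 promoter, plus strand, chr1:212565273-212565302: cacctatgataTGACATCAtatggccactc
FOS promoter, plus strand, chr14:75278752-75278781: tggttgagcccgTGACGtttacactcattc
TGACATCA was found in JUN and in 1 of the 2 ATF3 windows and in no other member, and in 2.61% of 35116 promoter windows of this length. TGACG was in the windows of FOS, FOSB, FOSL2, JUN, JUNB and JUND, as in 24.6% of all windows. TATAA was found in FOS, FOSB, JUNB and JUND and in 1 window of ATF3 (14.8% of all). TGACTCA was found only in FOSL2 (4.95% of all) and TGACGTCA only in JUND (1.85% of all).

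AU-rich elements, runs of the pentamer ATTTA in the 3′ untranslated region, are known to shorten the life of immediate early mRNAs. In the canonical GENCODE v44 transcripts the 3′ untranslated regions of the members held between 1 (FOSL1, JUND) and 9 (FOSL2) ATTTA pentamers, against a median of 2 over 12994 tested genes. FOS held 5 in 806 bases and FOSL2 held 9 in 4869 bases. These 2 alone of the 8 held the overlapping nonamer TTATTTATT, found in 9.08% of tested genes, and 2 pentamers within 30 bases, found in 24.9%. The windows with both pentamers in capitals (those of FOS overlap) are printed here, since the ActD libraries show what is left of these mRNAs once transcription stops.
FOS 3′ end, plus strand, chr14:75282058-75282087: tgtgtttttaATTTATTTAttaagatggat
FOSL2 3′ end, plus strand, chr2:28416349-28416378: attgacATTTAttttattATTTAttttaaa

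Without treatment the members differed widely in level. Per kb of exon and as the median over the 8 untreated groups, JUNB was highest at 32.2 normalized CPM per kb, followed by JUND at 19.3, FOSL2 at 12.99, FOSL1 at 10.1 and JUN at 8.95. ATF3 at 2.70, FOS at 1.88 and FOSB at 0.167 were low. FOSB rested on few reads, between 9 and 632 in the 24 untreated libraries with a median of 29, whereas FOS had between 94 and 536 and FOSL2 between 1914 and 6700.

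Untreated FOS also differed between clones. In normalized CPM its mean was 3.57 ± 0.264 (SD, n = 3 here and below) in RANGAP1-AID, 4.13 ± 0.327 in old AID-TPR and 4.86 ± 1.16 in NUP50-AID cells. It was 5.51 ± 3.17 in untagged DLD-1, 6.496 ± 1.81 in NUP153-AID and 6.72 ± 0.254 in AID-GANP cells, and 13.6 ± 1.43 in plain AID-TPR and 17.0 ± 1.98 in AID-NXF1 cells. In this order the ranges of neighbours overlapped from old AID-TPR to AID-GANP, whereas those of plain AID-TPR and AID-NXF1 lay above all 6 other groups. Plain and old AID-TPR cells carry the same genotype, so the 13.6 and 4.13 CPM belong to library sets, which also differ in how they were counted, and clone and set cannot be told apart elsewhere. Untreated JUN ranged from a mean of 13.98 ± 6.89 CPM in old AID-TPR to 67.1 ± 16.6 in AID-NXF1 cells, and ATF3 from 2.98 ± 1.67 in old AID-TPR to 22.1 ± 9.80 in AID-NXF1 cells. Untreated JUND varied least between groups, 1.32-fold between the highest and lowest means, and FOSB most, 21.3-fold. The highest FOSB mean, 9.51 ± 11.9 CPM in AID-NXF1 cells, rested on 1 library at 23.2 CPM beside 2.10 and 3.22. The lowest was 0.447 ± 0.151 CPM in NUP50-AID cells.

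**Figure D1:**
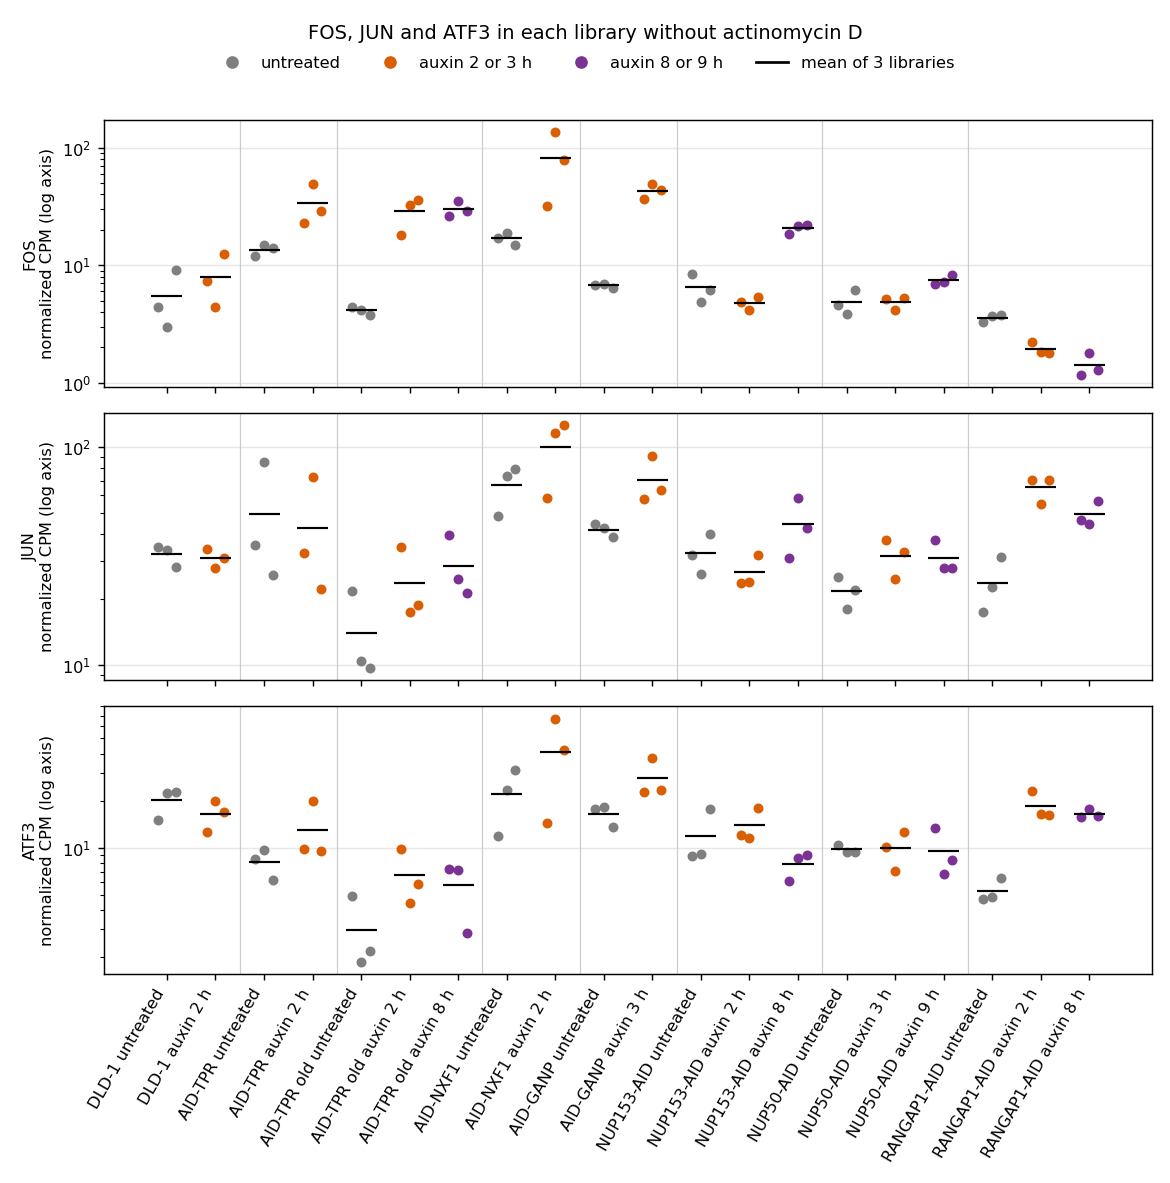
Normalized CPM (log axis) of FOS, JUN and ATF3 in each of the 60 libraries without ActD, by group. Points are libraries and black lines are the means of 3. FOS lies at 23.0 to 48.5 CPM upon 2 h of TPR loss against 12.0 to 14.7 in untreated cells of the plain set. In the old set these are 18.0 to 35.6 against 3.79 to 4.44. RANGAP1-AID cells show the reverse for FOS, with JUN and ATF3 higher.

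Upon auxin, the members did not move as a block. A gene was called where its adjusted p (edgeR quasi-likelihood, Benjamini-Hochberg over 17812 genes) was under 0.05 and its level was at least 1.3-fold or at most 0.7-fold that of untreated cells. At 2 or 3 h this held for 1 of the 8 (FOS) upon TPR loss in the plain libraries, where 0.511% of all tested genes were called and 0.107% called higher. The study's methods call the 3 libraries of a group independent biological replicates, and the labels say no more than their numbers. The call held for 1 (FOS) in the old libraries (0.455% of all genes, 0.146% higher) and for 1 (FOS) upon NXF1 loss (8.16%, 2.22% higher). Upon GANP loss 5 were called, with FOS, FOSB, JUN and ATF3 higher and JUND lower, in a comparison that called 15.5% of all genes, 3.97% higher and 11.5% lower. With 1 spread estimated over all 66 libraries FOS and JUND kept the call, while the adjusted p was 0.0753 for FOSB, 0.138 for JUN and 0.152 for ATF3. Upon RANGAP1 loss 4 were called, with JUN, ATF3 and FOSL2 higher and FOS lower (0.589% of all genes, 0.483% higher and 0.107% lower). Of these ATF3 alone kept the call in the fit over 66 libraries, where the adjusted p was 0.0525 for JUN, 0.132 for FOSL2 and 0.787 for FOS. None was called upon loss of NUP153 (0.0393%) or NUP50 (0.219%), or in untagged cells given auxin (0.0561%). In these 3 comparisons the members at an unadjusted p under 0.05 were 3, 3 and 1, as were 3.74%, 6.13% and 3.13% of all genes. DESeq2, run as another tool, called 1 (FOSL2), 3 (FOSL2, FOSL1 and JUN) and 0, beside 0.303%, 0.618% and 0.135% of all genes. The median log2 fold change of the 8 upon TPR loss was 0.06 in the plain and 0.85 in the old libraries, and it was 0.10 upon NXF1, 0.45 upon GANP and 0.46 upon RANGAP1 loss, whereas the medians over all tested genes lay between 0.00 and 0.01 in these comparisons. Groups without overlap were common among all genes. They made up 16.7% upon TPR loss (plain), 18.6% (old), 39.5% upon NXF1 and 45.7% upon GANP loss, beside 1, 3, 2 and 5 of the 8 members. Upon RANGAP1, NUP153 and NUP50 loss and in untagged cells they made up 11.9%, 8.24%, 12.2% and 7.61%, beside 6, 1, 2 and 1 members.

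**Figure D2:**
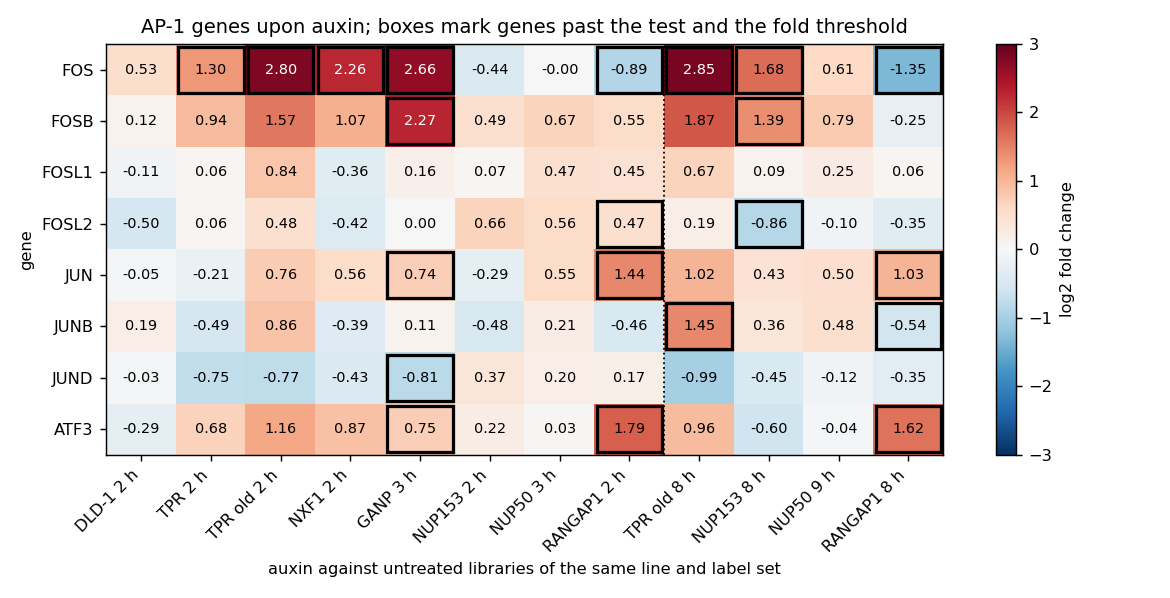
Log2 fold change of each member (rows) upon auxin against that line's untreated libraries (columns, plain and old AID-TPR apart), with 2 to 3 h left of the dotted line and 8 to 9 h right of it. Colour and number give the value, boxes mark called genes, and FOS is boxed in 8 of 12 columns, red in 6 and blue in the 2 of RANGAP1.

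FOS, the prototype of the family, rose when TPR, NXF1 or GANP was lost. In plain AID-TPR cells it measured 12.0, 14.7 and 13.99 normalized CPM untreated and 23.0, 48.5 and 28.8 after 2 h of auxin (replicates 1, 2 and 3 in each list). All 3 auxin libraries lay above all untreated ones (log2 fold change 1.3, SE 0.23, adjusted p = 0.0410, quasi-likelihood test of edgeR, adjusted over all genes by Benjamini-Hochberg like every adjusted p here). The call needed all but 2 of the libraries: without auxin replicate 3, or without any 1 of the untreated replicates, the adjusted p was 0.0655 to 0.178, with a log2 fold change of 1.21 to 1.39. In the old libraries FOS measured 4.44, 4.15 and 3.79 CPM untreated and 18.0, 32.7 and 35.6 after 2 h, again without overlap (log2 fold change 2.80, SE 0.26, adjusted p = 0.00394). Without the library labelled auxin 2 h old2 the change was 2.71 (SE 0.27, adjusted p = 0.00517); without untreated old2 it kept its size but not the call (adjusted p = 0.0844). The plain minus old difference of -1.5 (SE 0.39, adjusted p = 1) (-1.42, SE 0.40, adjusted p = 1 without that library) did not pass the test, and neither did that of any other member or gene in the fit with all libraries (0%; 574 genes at an unadjusted p under 0.05).

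In AID-NXF1 cells FOS went from 17.1, 18.9 and 14.9 CPM to 31.7, 136 and 78.3, with auxin replicate 2 more than 4 times replicate 1 (log2 fold change 2.26, SE 0.38, adjusted p = 0.00146). In AID-GANP cells it went from 6.77, 6.95 and 6.45 to 36.7, 48.6 and 43.8, the tightest of these changes (log2 fold change 2.66, SE 0.11, adjusted p = 9.22e-07). Groups did not overlap in either line. In the plain libraries the change upon TPR loss (2 h) was smaller than upon GANP loss (3 h), with a difference TPR minus GANP of -1.36 (SE 0.30, adjusted p = 0.0142), where 5.77% of all genes differed and 0.612% in this direction. This did not hold in the old libraries, where the difference, tested after the values had been seen, was 0.13 (SE 0.29, adjusted p = 1) and, without auxin 2 h old2, 0.01 (SE 0.29, adjusted p = 1). The difference TPR minus NXF1 in the plain libraries was -0.95, SE 0.53, adjusted p = 0.483 (2.28% of all genes differed, but no member) and with the replicate number as a block -0.82 (SE 0.26, adjusted p = 0.0368). In the old libraries it was 0.55 (SE 0.56, adjusted p = 0.793). Leaving out auxin 2 h old2 gave 0.45 (SE 0.61, adjusted p = 0.926).

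FOS was not called higher in the other lines at the early times. In NUP153-AID cells it measured 8.47, 4.90 and 6.11 CPM untreated and 4.84, 4.15 and 5.32 after 2 h, with overlap (log2 fold change -0.44, SE 0.20, adjusted p = 1). In NUP50-AID cells it measured 4.58, 3.87 and 6.13 and, after 3 h, 5.13, 4.17 and 5.22 (log2 fold change -0.00, SE 0.19, adjusted p = 1). Untagged cells given auxin went from 4.44, 3.01 and 9.06 to 7.31, 4.38 and 12.3, higher in each numbered pair though the groups overlapped (log2 fold change 0.53, SE 0.41, adjusted p = 1). The changes upon TPR, NXF1 and GANP loss were not tested against that in untagged cells. In RANGAP1-AID cells FOS fell, from 3.26, 3.69 and 3.74 to 2.23, 1.82 and 1.79 CPM without overlap (log2 fold change -0.89, SE 0.16, adjusted p = 0.0428), and this call was lost without any 1 of the 6 libraries, where the adjusted p was 0.0628 to 0.234.

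Tested directly, the change of FOS upon TPR loss was larger than upon NUP153 loss by 1.73 (SE 0.35, adjusted p = 0.0403), where 0.646% of all genes differed, 0.00561% in this direction. This call was lost in 10 of the 12 fits that left out 1 library, with the difference between 1.36 and 1.94 and adjusted p up to 0.137. With the old AID-TPR libraries in place of the plain ones it was 3.25 (SE 0.35, adjusted p = 0.00129). Without auxin 2 h old2 it was 3.15 (SE 0.37, adjusted p = 0.00142). The change upon TPR loss was larger than upon RANGAP1 loss by 2.18 (SE 0.33, adjusted p = 0.0119) (0.298% of all genes, 0.0112% in this direction), a call lost without RANGAP1-AID auxin or untreated replicate 2 (adjusted p up to 0.0601). In the old libraries this difference was 3.69 (SE 0.32, adjusted p = 0.000169). It was 3.59 (SE 0.33, adjusted p = 0.000918) without auxin 2 h old2. The difference from NUP50 loss was 1.3 (SE 0.34, adjusted p = 0.169) with the plain libraries (0.124% of all genes) and 2.80 (SE 0.34, adjusted p = 0.00263) with the old ones. Without auxin 2 h old2 this was 2.72 (SE 0.35, adjusted p = 0.00396). Tested after the values had been seen, FOS also differed between NXF1 and RANGAP1 loss by 3.14 (SE 0.58, adjusted p = 0.00262), where 8.14% of all genes differed, and between GANP and RANGAP1 loss by 3.55 (SE 0.18, adjusted p = 1.04e-07), where 12.5% did.

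FOSB, a close relative of FOS, was called at the early times only upon GANP loss, where it went from 1.15, 0.587 and 1.25 CPM to 2.18, 10.3 and 2.30 (log2 fold change 2.27, SE 0.62, adjusted p = 0.0197). Auxin replicate 2 carried the highest value. The call was lost without untreated replicate 2 (adjusted p = 0.0631), and without auxin replicate 2 it kept the call at 1.17 (SE 0.27, adjusted p = 0.0105).

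In plain AID-TPR cells FOSB measured 0.816, 15.9 and 1.13 CPM untreated and 1.04, 31.6 and 2.22 after auxin. In AID-NXF1 cells it measured 2.10, 23.2 and 3.22 and 2.53, 48.8 and 8.06. Replicate 2 of both lines stood far above replicates 1 and 3, treated and untreated alike, and within each numbered pair the auxin library was higher. The fits without a block called neither (log2 fold change 0.94, SE 1.18, adjusted p = 0.842 for TPR, and -1.88 to 3.55 without 1 library; log2 fold change 1.07, SE 0.91, adjusted p = 0.434 for NXF1). With the replicate number as a block FOSB passed in both comparisons, at 0.93 (SE 0.11, adjusted p = 8.49e-09) upon TPR loss and 1.01 (SE 0.10, adjusted p = 8.79e-08) upon NXF1 loss. The difference TPR minus GANP was -1.27 (SE 0.34, adjusted p = 0.00540) with the block (adjusted p = 0.788 without it). In both comparisons same-numbered libraries deviated together over genes, which is why these values stand here. In old AID-TPR cells FOSB lay at 0.452 to 0.814 CPM untreated and at 1.45 to 2.85 after 2 h of auxin. These groups did not overlap, but FOSB was not called with all libraries (log2 fold change 1.57, SE 0.35, adjusted p = 0.110).

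FOSL1 (FRA-1) was not called in any line at 2 or 3 h. Its values lay above the untreated ones without overlap in old AID-TPR cells (16.495, 14.6 and 18.3 against 25.0, 23.8 and 39.2 CPM; log2 fold change 0.84, SE 0.21, adjusted p = 0.149) and in NUP50-AID (log2 fold change 0.47, SE 0.12, adjusted p = 0.228) and RANGAP1-AID cells (15.5, 15.0 and 20.8 against 25.9, 21.0 and 23.7 CPM; log2 fold change 0.45, SE 0.14, adjusted p = 0.328). Without auxin 2 h old2 the old libraries gave 0.97 (SE 0.19, adjusted p = 0.0849). Upon RANGAP1 loss it passed with the replicate block, at 0.45 (SE 0.08, adjusted p = 0.000403), as did its difference TPR minus NXF1, at 0.45 (SE 0.10, adjusted p = 0.00311).

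FOSL2 (FRA-2), the member with the highest median read count, set the lines apart in another way. In untagged DLD-1 it was lower after auxin, 115, 137 and 103 CPM against 164, 182 and 157, without overlap but not past the adjusted test (log2 fold change -0.50, SE 0.09, adjusted p = 0.173). In AID-NXF1 cells it measured 84.3, 93.6 and 105 against 114, 139 and 120.2 CPM, which passed the test but not the 0.7-fold threshold (log2 fold change -0.42, SE 0.09, adjusted p = 0.00605). In RANGAP1-AID cells FOSL2 rose, to 139, 135 and 128 from 101, 94.1 and 92.6 CPM (log2 fold change 0.47, SE 0.08, adjusted p = 0.0264), a call that 5 of the 6 fits without 1 library lost (adjusted p up to 0.172).

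In the other basket lines FOSL2 also had its higher values after auxin. It measured 88.9, 82.8 and 95.2 CPM in untreated NUP153-AID cells and 150.2, 118 and 153 after 2 h, a non-overlapping difference that was not called (log2 fold change 0.66, SE 0.10, adjusted p = 0.0931) but passed with the replicate block, at 0.66 (SE 0.05, adjusted p = 9.32e-11). In NUP50-AID cells it measured 80.9, 77.9 and 97.8 and 113, 121 and 142 (log2 fold change 0.56, SE 0.11, adjusted p = 0.0580). Tests of the differences were added because the values lay on opposite sides of untreated cells, and all passed. Since the same values chose the pairs, these p-values are no independent support. The change in untagged cells minus that upon NUP153 loss was -1.16 (SE 0.15, adjusted p = 0.00284), minus that upon NUP50 loss -1.05 (SE 0.16, adjusted p = 0.00407) and minus that upon RANGAP1 loss -0.98 (SE 0.13, adjusted p = 0.000831). The change upon NXF1 loss minus that upon NUP153 loss was -1.08 (SE 0.15, adjusted p = 0.000390), minus NUP50 loss -0.97 (SE 0.16, adjusted p = 0.000991) and minus RANGAP1 loss -0.89 (SE 0.13, adjusted p = 0.000348). Of all genes 0.354%, 0.46% and 0.893% differed in the first 3 of these tests, and 8.13%, 7.38% and 8.14% in the others. The 6 tests share libraries and are not independent of each other. In plain AID-TPR (0.06, SE 0.12) and AID-GANP cells (0.00, SE 0.12) the log2 fold change of FOSL2 was near 0. With the replicate block, the difference TPR minus NUP153 was -0.59 (SE 0.08, adjusted p = 2.76e-05), TPR minus RANGAP1 -0.40 (SE 0.07, adjusted p = 0.00172) and TPR minus NXF1 0.50 (SE 0.08, adjusted p = 0.000137). None of the 3 passed without the block (adjusted p = 0.230, 0.559 and 0.202). Old AID-TPR cells measured 76.7, 74.8 and 86.1 CPM untreated and 119, 74.7 and 138 after 2 h; without the library labelled old2 FOSL2 was called, at 0.71 (SE 0.12, adjusted p = 0.0444).

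**Figure D3:**
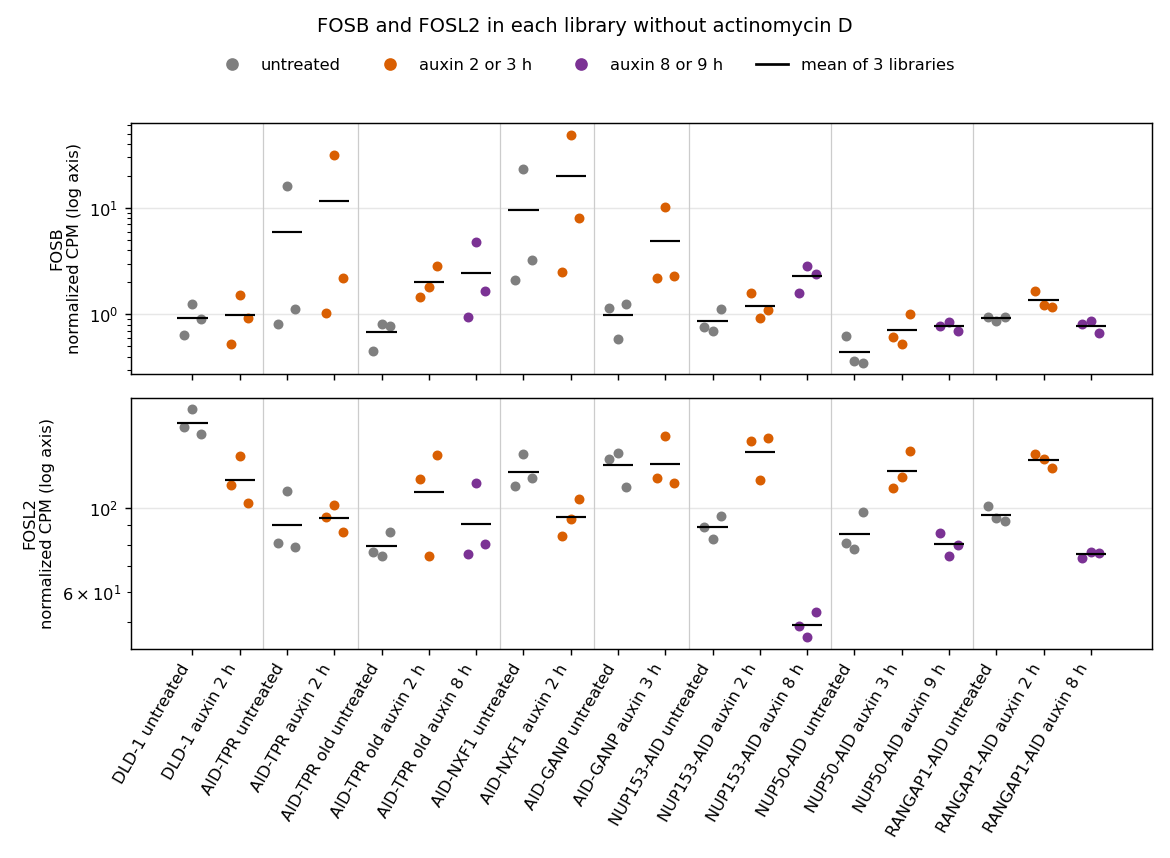
Normalized CPM (log axis) of FOSB and FOSL2 in each of the 60 libraries without ActD, by group, with black lines at the means of 3. Replicate 2 of the plain AID-TPR and AID-NXF1 groups stands at 15.9 to 48.8 CPM of FOSB, and FOSL2 is lowest in NUP153-AID cells after 8 h of auxin.

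JUN, the main partner of FOS, rose most when RANGAP1 was lost, from 17.5, 22.8 and 31.4 CPM to 70.5, 54.8 and 70.8 (log2 fold change 1.44, SE 0.19, adjusted p = 0.00835). Without untreated replicate 2 the adjusted p was 0.0755, and the other 5 fits without 1 library kept the call. Upon GANP loss it rose from 44.5, 42.5 and 38.5 to 57.7, 91.3 and 63.3 CPM (log2 fold change 0.74, SE 0.15, adjusted p = 0.00361). Upon NXF1 loss it measured 48.3, 73.7 and 79.4 and 58.2, 116 and 126 CPM, higher in each numbered pair and called only with the block, at 0.52 (SE 0.06, adjusted p = 1.35e-07). In plain AID-TPR cells JUN did not follow FOS: it measured 35.6, 85.8 and 25.8 CPM untreated and 32.6, 73.0 and 22.4 after 2 h, lower in each numbered pair (log2 fold change -0.21, SE 0.47, adjusted p = 0.925). With the block the difference TPR minus RANGAP1 was -1.65 (SE 0.13, adjusted p = 8.09e-08), TPR minus GANP -0.91 (SE 0.10, adjusted p = 6.62e-09) and TPR minus NXF1 -0.71 (SE 0.08, adjusted p = 9.49e-07), while none of the 3 passed without it (adjusted p = 0.490, 0.434 and 0.674). In the old libraries JUN stood at 21.9, 10.4 and 9.63 CPM untreated and 34.8, 17.4 and 18.9 after 2 h, higher in each numbered pair (log2 fold change 0.76, SE 0.35, adjusted p = 0.419). Without auxin 2 h old2 the change was 0.95 (SE 0.37, adjusted p = 0.484). The sign in AID-TPR cells thus turned between library sets, and neither value was called. Within the plain set it also turned with the library left out, between -0.84 and 0.47.

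JUNB, which often opposes JUN, was not called in any line at 2 or 3 h. Its log2 fold changes ran from -0.49 in plain AID-TPR to 0.86 in old AID-TPR cells, and plain libraries were lower after auxin in each pair (76.5, 154 and 89.1 against 61.5, 104 and 62.0 CPM). In the old set the library labelled auxin 2 h old2 measured 334 CPM against 84.0 and 169.7 in old1 and old3, and without it the log2 fold change was 0.24 (SE 0.27, adjusted p = 0.955). With the block, the difference TPR minus GANP in JUNB was -0.54 (SE 0.10, adjusted p = 0.000112), against an adjusted p of 0.478 without it.

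JUND, the steady member of the family, was called at the early times only upon GANP loss. There it fell from 32.2, 49.9 and 40.0 CPM to 16.8, 30.9 and 22.9 (log2 fold change -0.81, SE 0.20, adjusted p = 0.0125), and lost the call without untreated replicate 2 or auxin replicate 3 (adjusted p up to 0.0514). In plain AID-TPR cells it measured 26.3, 64.5 and 29.2 and 19.1, 29.6 and 23.1 CPM, lower in each numbered pair, which passed only with the block at -0.67 (SE 0.08, adjusted p = 1.58e-09) and not without it (log2 fold change -0.75, SE 0.30, adjusted p = 0.459). The old libraries gave 23.7, 29.5 and 39.5 and 17.7, 11.8 and 25.0 CPM (log2 fold change -0.77, SE 0.27, adjusted p = 0.329). Without auxin 2 h old2 the change was -0.53 (SE 0.23, adjusted p = 0.598). AID-NXF1 cells gave a log2 fold change of -0.43 (adjusted p = 0.0545). In NUP153-AID, NUP50-AID and RANGAP1-AID cells the values were 0.37, 0.20 and 0.17, none called. With the block the difference TPR minus NUP153 was -1.03 (SE 0.14, adjusted p = 1.41e-05) and TPR minus RANGAP1 -0.86 (SE 0.13, adjusted p = 0.000350), and without it the adjusted p was 0.5 and 0.676.

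ATF3, a stress-induced partner of JUN, gave the largest change of any member at RANGAP1 loss. It went from 4.69, 4.80 and 6.39 CPM to 23.0, 16.3 and 16.2 (log2 fold change 1.79, SE 0.17, adjusted p = 0.00147), a call kept in all 6 fits that left out 1 library. Upon GANP loss it rose from 17.8, 18.2 and 13.6 to 22.8, 37.6 and 23.5 CPM (log2 fold change 0.75, SE 0.18, adjusted p = 0.0125). In plain AID-TPR cells it measured 8.40, 9.70 and 6.19 and 9.72, 19.8 and 9.55 CPM, and in AID-NXF1 cells 11.8, 23.3 and 31.3 and 14.3, 66.9 and 42.1, higher in every numbered pair of both lines. It passed there only with the block, at 0.65 (SE 0.10, adjusted p = 9.78e-07) and 0.78 (SE 0.13, adjusted p = 6.79e-05), against adjusted p = 0.459 and 0.171 without it. The difference TPR minus RANGAP1 was -1.11 (SE 0.20, adjusted p = 0.00118) with the block and did not pass without it (adjusted p = 0.412). In old AID-TPR cells ATF3 lay at 1.86 to 4.90 CPM untreated and at 4.38 to 9.76 after 2 h of auxin. These groups overlapped, and ATF3 was not called with all libraries (log2 fold change 1.16, SE 0.39, adjusted p = 0.309). In untagged cells ATF3 measured 15.1, 22.3 and 22.8 CPM without and 12.5, 19.7 and 16.8 after 2 h of auxin, overlapping though lower in each numbered pair (log2 fold change -0.29, SE 0.18, adjusted p = 1). JUN and ATF3, the 2 members with TGACATCA in a promoter window, both rose upon RANGAP1 loss, as did FOSL2, which has none in its windows, while FOS fell. JUN and ATF3 were also both called higher upon GANP loss (0.74 and 0.75) and after 8 h of RANGAP1 loss (1.03 and 1.62). Upon NXF1 loss (0.56 and 0.87) and in old AID-TPR cells at both times both were positive, though not called with all libraries. In other comparisons they parted, as at -0.21 and 0.68 upon TPR loss (plain) and 0.43 and -0.60 after 8 h of NUP153 loss, none called. Whether the motif plays a part was not tested.

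At the later times the pattern of several members differed from that of the early ones. After 8 h in old AID-TPR cells FOS (log2 fold change 2.85, SE 0.19, adjusted p = 0.000261) and JUNB (log2 fold change 1.45, SE 0.30, adjusted p = 0.0362) were called higher, 2 of 8 members beside 3.61% of all genes (1.25% higher). FOS measured 26.2, 34.8 and 28.6 CPM after 8 h and JUNB 314, 151 and 429, against 91.1, 101 and 130.2 in untreated cells. Without the library labelled auxin 8 h old2, FOS (2.69, SE 0.15, adjusted p = 1.66e-05), JUNB (1.75, SE 0.17, adjusted p = 0.000134), JUN (1.09, SE 0.33, adjusted p = 0.0389) and FOSL1 (0.59, SE 0.16, adjusted p = 0.0210) were called higher and JUND (-1.25, SE 0.27, adjusted p = 0.00797) lower. Without any 1 of the other libraries the call of JUNB was lost (adjusted p up to 0.16), whereas FOS kept it in all 6 fits. Compared directly, 8 h minus 2 h of TPR loss called no member and 0% of the 17812 genes in edgeR (48 genes at an unadjusted p under 0.05, none a member), and DESeq2 called 0 members. With both libraries labelled old2 left out, JUNB was higher at 8 h by 1.51 (SE 0.28, adjusted p = 0.0178) and FOSL2 lower, at -0.76 (SE 0.14, adjusted p = 0.0158), while FOS differed by -0.01 (SE 0.26).

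Upon NUP153 loss FOS was called at 8 h and not at 2 h. It then measured 18.6, 21.7 and 22.0 CPM, above all 3 untreated and all 3 2 h libraries (log2 fold change 1.68, SE 0.17, adjusted p = 0.00501). FOSB rose from 0.761, 0.7003 and 1.13 to 1.5995, 2.84 and 2.39 CPM (log2 fold change 1.39, SE 0.27, adjusted p = 0.0320) and FOSL2 fell, to 48.6, 45.4 and 53.0 CPM (log2 fold change -0.86, SE 0.08, adjusted p = 0.00501), so 3 of 8 members were called beside 1.34% of all genes (0.926% higher, 0.41% lower). The call of FOSB was lost in 4 of 6 fits without 1 library, with adjusted p up to 0.148. Between 2 h and 8 h itself FOS rose by 2.11 (SE 0.12, adjusted p = 1.97e-05) and FOSL2 fell by 1.53 (SE 0.11, adjusted p = 6.82e-05) on the log2 scale. JUNB went from 74.0, 61.1 and 97.4 CPM at 2 h to 137, 137 and 142 at 8 h (log2 fold change 0.83, SE 0.14, adjusted p = 0.0102). JUND went from 40.2, 34.2 and 60.6 to 27.6, 24.1 and 24.8 (log2 fold change -0.83, SE 0.18, adjusted p = 0.0321) and ATF3 from 12.1, 11.5 and 18.0 to 6.12, 8.57 and 8.89 (log2 fold change -0.83, SE 0.19, adjusted p = 0.0438), none of the 3 with overlap between the times. Of all genes 20.8% had no overlap between these times. JUNB was thus called higher and JUND and ATF3 lower, which makes 5 of 8 beside 1.95% of all genes (1.15% higher, 0.808% lower). The calls of JUNB, JUND and ATF3 were lost in 2, 3 and 5 of 6 fits without 1 library, with adjusted p up to 0.0711, 0.158 and 0.135.

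In NUP50-AID cells no member was called after 9 h, where 0.371% of all genes were, and FOS, FOSB, JUN and JUNB had an unadjusted p under 0.05, as had 2940 of the 17812 genes. DESeq2 called 3 of these (FOS, JUN and JUNB), beside 0.966% of all genes. FOS measured 6.89, 7.26 and 8.29 CPM, above all untreated libraries but not called (log2 fold change 0.61, SE 0.17, adjusted p = 0.113). Between 3 h and 9 h FOSL2 fell (log2 fold change -0.66, SE 0.09, adjusted p = 0.0111), 1 of 8 members beside 0.258% of all genes (0.219% lower), a call lost without auxin 3 h replicate 2 or auxin 9 h replicate 2 or 3 (adjusted p up to 0.125). FOS was higher at 9 h than at 3 h without overlap, like 14% of all genes in either direction. It passed with the block, at 0.62 (SE 0.11, adjusted p = 0.00259), and not without it (adjusted p = 0.15).

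After 8 h of RANGAP1 loss FOS was again below untreated cells, at 1.17, 1.79 and 1.29 CPM (log2 fold change -1.35, SE 0.18, adjusted p = 0.000512), while ATF3 was above them at 15.7, 17.7 and 16.0 CPM (log2 fold change 1.62, SE 0.13, adjusted p = 2.92e-05) and JUN at 46.3, 44.6 and 56.4 (log2 fold change 1.03, SE 0.17, adjusted p = 0.00206). JUNB fell from 33.0, 30.9 and 48.3 to 23.7, 21.7 and 31.9 CPM (log2 fold change -0.54, SE 0.18, adjusted p = 0.0446) although its groups overlapped, and its call was lost without auxin replicate 1 or 2 or untreated replicate 3 (adjusted p up to 0.166). These were 4 of 8 members in a comparison that called 14.9% of all genes (8.26% higher, 6.62% lower). Between 2 h and 8 h FOSL2 (to 73.7, 76.5 and 75.9 CPM; log2 fold change -0.83, SE 0.07, adjusted p = 0.000108), FOSB (log2 fold change -0.80, SE 0.22, adjusted p = 0.0348) and JUND (log2 fold change -0.52, SE 0.10, adjusted p = 0.00728) fell, 3 of 8 beside 8.8% of all genes (3.59% lower). The call of FOSB was lost in 5 of 6 fits without 1 library (adjusted p up to 0.128), and JUND lost its call by the fold alone without auxin 2 h replicate 3 or auxin 8 h replicate 1. FOSL2 was thus lower at the later time than at the earlier one by the test in all 3 of these lines, and in old AID-TPR cells only with the old2 libraries left out.

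Other members were not called at the later times, some with and some without overlap between the groups. After 8 h of RANGAP1 loss FOSL2 lay below untreated cells without overlap (log2 fold change -0.35, SE 0.06, adjusted p = 0.00311). This passed the test but not the 0.7-fold threshold. Of all genes 28.7% had no overlap with untreated cells upon TPR loss (8 h), beside 5 of the 8 members. The shares were 19%, 21.3% and 42.2% at the later times of NUP153, NUP50 and RANGAP1 loss, beside 4, 3 and 5 members. In old AID-TPR cells FOSB measured 0.452, 0.814 and 0.772 CPM untreated and 0.946, 4.81 and 1.65 after 8 h, without overlap (log2 fold change 1.87, SE 0.58, adjusted p = 0.0943). Leaving out auxin 8 h old2 gave 0.90 (SE 0.37, adjusted p = 0.106). ATF3 measured 4.90, 1.86 and 2.18 and 7.28, 7.22 and 2.85 CPM, with overlap (log2 fold change 0.96, SE 0.44, adjusted p = 0.215). Leaving out auxin 8 h old2 gave 0.73 (SE 0.43, adjusted p = 0.264). JUND was below untreated cells in all 3 libraries of old AID-TPR (log2 fold change -0.99, SE 0.29, adjusted p = 0.0823) and of NUP153-AID after 8 h (log2 fold change -0.45, SE 0.11, adjusted p = 0.0768), and called in neither with all libraries. In NUP50-AID cells after 9 h JUN measured 37.3, 27.8 and 27.8 CPM against 25.2, 18.1 and 22.0 (log2 fold change 0.50, SE 0.14, adjusted p = 0.111), and ATF3 13.4, 6.81 and 8.33 against 10.4, 9.40 and 9.37 (log2 fold change -0.04, SE 0.20, adjusted p = 1).

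The late change of FOS differed between lines when tested after its values had been seen. It was larger upon TPR loss (8 h, old libraries) than upon RANGAP1 loss (8 h) by 4.20 (SE 0.25, adjusted p = 1.92e-06), where 11.4% of all genes differed. Without auxin 8 h old2 the difference was 4.05 (SE 0.22, adjusted p = 1.52e-07). It was larger upon NUP153 loss (8 h) by 3.01 (SE 0.27, adjusted p = 8.74e-06) and upon NUP50 loss (9 h) by 1.98 (SE 0.26, adjusted p = 0.000176) than upon RANGAP1 loss, where 10.4% and 9.69% of all genes differed. FOSB differed between NUP153 and RANGAP1 loss at 8 h by 1.62 (SE 0.36, adjusted p = 0.00932), but not by the test between TPR (2.11, SE 0.69, adjusted p = 0.0657) or NUP50 loss (1.06, SE 0.37, adjusted p = 0.0834) and RANGAP1 loss. Without auxin 8 h old2 the difference for TPR was 1.16 (SE 0.41, adjusted p = 0.0545).

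ActD asked what auxin does to these mRNAs once transcription is blocked. With ActD alone FOS measured 3.11, 10.4 and 6.39 CPM and with ActD and auxin 4.49, 15.3 and 6.73, higher in each numbered pair but overlapping (log2 fold change 0.41, SE 0.53, adjusted p = 1). JUN (14.8, 42.7 and 22.8 against 14.5, 54.3 and 25.2 CPM) and ATF3 (2.80, 9.57 and 4.09 against 3.66, 9.67 and 4.06) overlapped likewise. No member, and 0% of all genes, was called between the 2 ActD groups by edgeR (78 genes at an unadjusted p under 0.05, none a member); the same-numbered pairs deviated together, and neither the blocked fit nor DESeq2 called any of the 8. The auxin effect on FOS with ActD minus that without it in the old libraries was -2.38 (SE 0.62, adjusted p = 0.273), which did not pass the test (no member did, beside 0.0225% of all genes). Leaving out auxin 2 h old2 gave -2.29 (SE 0.68, adjusted p = 0.398). With the replicate block the difference passed for FOS, at -2.38 (SE 0.28, adjusted p = 0.00391), and for ATF3, at -1.09 (SE 0.19, adjusted p = 0.0232), 2 of 8 members beside 1.62% of all genes. In the other 6 members the adjusted p with the block was 0.0537 to 0.386. The old libraries without ActD did not deviate together by number (r = 0.61, 0.07 and 0.54). Their numbers are thus not shown to pair them, and the blocked values give no firm support.

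What ActD alone did to a member depended on the untreated libraries it was set against, since no untreated library belongs to the ActD set. Against the old untreated libraries, which were counted like the ActD libraries, FOSB was called higher (log2 fold change 1.88, SE 0.44, adjusted p = 0.0123) and FOSL2 (log2 fold change -1.20, SE 0.11, adjusted p = 0.000115) and FOSL1 (log2 fold change -0.74, SE 0.18, adjusted p = 0.0150) lower, 3 of 8 members where 21.1% of all genes were called, 8.79% higher and 12.3% lower. Against the plain untreated libraries the sign of FOSB turned (-1.27, SE 0.97, adjusted p = 0.292), and so did those of FOS (from 0.67 to -1.08, SE 0.33, adjusted p = 0.0198), JUN (from 0.93 to -0.92, SE 0.47, adjusted p = 0.125) and ATF3 (from 0.86 to -0.62, SE 0.38, adjusted p = 0.193). No direction is therefore given for these 4. FOSL2 (-1.42, SE 0.14, adjusted p = 1.72e-05) and FOSL1 (-1.38, SE 0.22, adjusted p = 0.000586) were lower against both references. FOSL2 stood at 31.2, 36.0 and 36.3 CPM with ActD against 76.7, 74.8 and 86.1 in old and 80.9, 111 and 78.8 in plain untreated cells. The call of FOSL1 against the old libraries was lost without ActD replicate 1 or untreated old3 (adjusted p up to 0.0621). These are shares of the RNA left after 2 h, so a value near 0 means decay at the pace of the average mRNA. Of the 2 members whose ATTTA windows are printed above, FOSL2 was lower against both references and the sign of FOS turned with the reference.

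**Figure D4:**
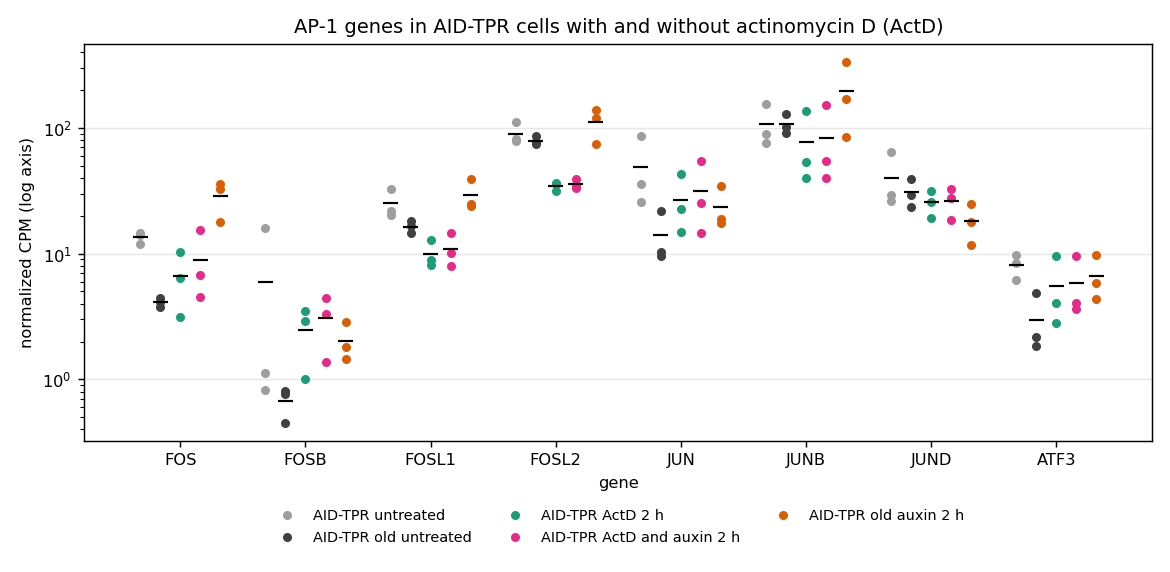
Normalized CPM (log axis) of the 8 members in untreated plain and old AID-TPR libraries, with ActD, with ActD and auxin, and with auxin alone (old set). Points are libraries and black lines are the means of 3. The ActD groups with and without auxin overlap for every member, and FOSL2 with ActD (31.2 to 36.3 CPM) lies below both untreated groups.

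Genes that act with AP-1 gave a context for these values. Of all genes, 0.511% were called upon TPR loss (plain), 8.16% upon NXF1 and 15.5% upon GANP loss. In the old AID-TPR libraries 0.455% were called at 2 h and 3.61% at 8 h. RANGAP1 loss called 0.589% at 2 h and 14.9% at 8 h, and ActD alone 21.1% against the old untreated libraries. Of 15 other immediate early genes, 1 was called upon TPR loss in the plain libraries, IER5, at -1.05 (SE 0.09, adjusted p = 0.00136). Upon NXF1 loss 3 were higher and 1 lower, namely EGR1 1.37 (SE 0.27, adjusted p = 0.00359), CCN1 1.02 (SE 0.16, adjusted p = 0.000811), DUSP1 0.95 (SE 0.23, adjusted p = 0.0132) and IER5 -1.45 (SE 0.10, adjusted p = 5.86e-06). Upon GANP loss 7 were higher and 1 lower, led by EGR1 2.22 (SE 0.22, adjusted p = 3.66e-05), EGR2 1.61 (SE 0.30, adjusted p = 0.00260), CCN1 1.5 (SE 0.18, adjusted p = 0.000168), KLF10 1.44 (SE 0.22, adjusted p = 0.000659) and IER3 1.41 (SE 0.34, adjusted p = 0.0103), with IER5 lower at -2.05 (SE 0.08, adjusted p = 9.22e-07). EGR1 is a zinc finger factor induced by the same signals as FOS, DUSP1 a MAP kinase phosphatase and CCN1 a secreted matrix protein. In the old AID-TPR libraries EGR1, EGR2, IER3 and CCN1 were higher and IER5 lower at 2 h, and 9 were higher and none lower at 8 h, EGR1 among them at both times (2.49, SE 0.39, adjusted p = 0.0282 at 2 h). Without the auxin libraries labelled old2, EGR1, IER3 and CCN1 were higher and IER5 lower at 2 h, beside 0.719% of all genes, and 13 were higher and IER5 lower at 8 h, beside 21%. Upon RANGAP1 loss CCN1 was higher and IER5 lower at 2 h, and KLF10 was higher and EGR1, EGR2, DUSP5 and CCN2 were lower at 8 h (EGR1 -0.77, SE 0.24, adjusted p = 0.0389). NUP153 loss gave 1 lower at each time, EGR1 at 2 h (-0.81, SE 0.10, adjusted p = 0.0410) and IER3 at 8 h, untagged cells and NUP50 loss gave none, nor did auxin within ActD, and ActD alone gave CCN2 higher and 8 lower against the old untreated libraries. Against the plain ones ActD alone gave 13 lower, CCN2 among them, and none higher, beside 43.8% of all genes.

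Of 10 tested basic leucine zipper genes whose proteins pair with FOS or JUN (2 more, BATF3 and MAF, did not pass the filter), none was called upon TPR loss at 2 h in either set. Upon NXF1 loss 4 were lower, MAFK -1.06 (SE 0.12, adjusted p = 7.54e-05), MAFF -0.97 (SE 0.20, adjusted p = 0.00586), MAFG -0.65 (SE 0.12, adjusted p = 0.00280) and ATF4 -0.54 (SE 0.05, adjusted p = 3.93e-05). Upon GANP loss MAFK -0.98 (SE 0.10, adjusted p = 6.54e-05), MAFF -0.91 (SE 0.21, adjusted p = 0.00794), MAFG -0.56 (SE 0.11, adjusted p = 0.00397) and ATF7 -0.53 (SE 0.10, adjusted p = 0.00296) were lower. The small MAF proteins MAFF, MAFG and MAFK lack an activation domain. RANGAP1 loss gave MAFF higher at 2 h and ATF4 and JDP2 higher at 8 h. At 8 h NUP153 loss gave MAFF lower, and ActD alone gave BATF2, MAFG and MAFK lower against the old untreated libraries, and BATF and JDP2 higher and ATF7, MAFF, MAFG and MAFK lower against the plain ones. Of 14 upstream kinases and factors, such as SRF, the ELK factors and the MAP kinases, MAPK14 -0.61 (SE 0.09, adjusted p = 0.000571) and MRTFA -0.53 (SE 0.11, adjusted p = 0.00474) were lower upon GANP loss, MAPK8 was higher and MRTFA lower with ActD alone against the old untreated libraries (MRTFA alone was called, lower, against the plain ones), and none was called in the other comparisons with untreated cells. The 2 of 14 lower upon GANP loss stood beside 11.5% of all genes lower, a similar share. Without auxin 8 h old2, ELK1 and MAPK8 were called higher after 8 h in old AID-TPR cells and, of the pairing partners, ATF4 lower, beside 21% of all genes. Of 13 known AP-1 target genes 9 were tested (MMP1, MMP7, MMP9 and MMP10 were too low), and none was called in a comparison of auxin with untreated cells except PLAU, lower after 8 h of RANGAP1 loss, and ActD alone gave CD44, HMOX1 and VEGFA lower against the old untreated libraries and VEGFA against the plain ones. Without auxin 8 h old2, PLAUR, CCND1, TIMP1, HMOX1 and VEGFA were called higher after 8 h in old AID-TPR cells. Genes of these lists named for comparisons other than TPR (2 h, plain), NXF1 and GANP loss were chosen after their values were seen.

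Over the 60 libraries without ActD, each centred on the untreated libraries of its own line and set, the members' log2 levels varied together only in part. These are correlations over libraries that share treatments and lines, given as a description. JUN and ATF3 were the most alike (Pearson's r = 0.75), then FOS and FOSB (0.56), whereas FOS and JUN gave 0.23 and FOS and JUND -0.62. Of 14679 other genes the 3 most like FOS were EGR1 (r = 0.89), CCNL1 (0.83) and CLASP2 (0.77). For ATF3 they were KLF6 (0.72), RGS2 (0.72) and NCOA7 (0.71), and for JUN ENSG00000274021 (0.67), ENSG00000222043 (0.66) and SMAD7 (0.65).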

How the data were processed

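Total RNA of 66 DLD-1 libraries was measured as reads per gene. Per the labels and the submitters' processing notes, the authors used CASAVA 1.8.2, aligned to GRCh38 with STAR 2.6.1c and deposited whole-number counts per Ensembl gene from featureCounts 1.5.2; whether counting used strand is not given in the sources used here. Groups and replicate numbers came from the labels. The members and gene lists were chosen with earlier results of these data known. All 8 members and the list genes called upon TPR, NXF1 or GANP loss (largest change first, at most 6 a list) were named.

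A gene was tested if it exceeded 1 CPM in at least 4 (over 5%) of the 60 libraries that had no ActD, which left 17812 genes. Each pair of groups was fitted in edgeR 4.0.16 (R 4.3.3) with TMM factors and the quasi-likelihood test, Benjamini-Hochberg adjusted over all genes, and a call required both adjusted p under 0.05 and a ratio of 1.3 or more, or of 0.7 or less. Differences between comparisons were interaction terms over 4 groups, called at an adjusted p under 0.05 alone. Levels are TMM-normalized CPM. The code was tested on simulated counts with 200 changed genes. Totals of 18943661 to 55411411 counts set the precision, which is lowest for FOSB.

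The labels number the libraries. Same-numbered libraries deviated together (each r above 0.1) for plain AID-TPR, AID-NXF1, AID-GANP, NUP153-AID at 2 h, RANGAP1-AID at both times and between them, NUP50-AID between 3 h and 9 h, and both ActD groups, where values with a replicate block stand beside the results they change. Alternatives were DESeq2 1.42.0, other filters, RLE or no normalization factors, one fit over 66 libraries, a symmetric fold, other AID-TPR references and each library left out. Names and positions came from GENCODE v44 (56948 identifiers matched), promoters from RefSeq (GRCh38.p14). Results of 1 listed gene are not reported here. No column of the authors' own comparisons was used.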

Additional observations from a re-analysis of the deposited data

Results flagged for a closer look

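The following results stood out because the change upon auxin differed between lines by a test of the difference itself (interaction term in edgeR, Benjamini-Hochberg over all genes). The log2 fold change of FOS upon TPR loss at 2 h differed from that upon NUP153 loss by 1.73 (SE 0.35, adjusted p = 0.0403), from that upon RANGAP1 loss by 2.18 (SE 0.33, adjusted p = 0.0119) and, in the plain libraries, from that upon GANP loss at 3 h by -1.36 (SE 0.30, adjusted p = 0.0142); in the old AID-TPR libraries the last of these was 0.13 (SE 0.29, adjusted p = 1). The first of these was lost in 10 of 12 fits without 1 library and the second in 2 of 12 (without replicate 2 of RANGAP1-AID auxin 2 h or untreated).

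The remaining differences were tested after the values had been seen. They are listed where the member's groups lay apart from untreated cells in opposite directions, so their p-values are no independent support. For FOS the difference NXF1 minus RANGAP1 was 3.14 (SE 0.58, adjusted p = 0.00262) and GANP minus RANGAP1 3.55 (SE 0.18, adjusted p = 1.04e-07). At the later times the FOS differences from RANGAP1 loss were 4.20 (SE 0.25, adjusted p = 1.92e-06) for TPR in the old libraries (4.05, SE 0.22, adjusted p = 1.52e-07 without auxin 8 h old2), 3.01 (SE 0.27, adjusted p = 8.74e-06) for NUP153 and 1.98 (SE 0.26, adjusted p = 0.000176) for NUP50. FOSB differed between NUP153 and RANGAP1 loss at 8 h by 1.62 (SE 0.36, adjusted p = 0.00932). Other differences outside this rule also passed, and only some are named here. FOS differed between NXF1 and NUP153 loss by 2.69 (SE 0.54, adjusted p = 0.00528) and between NXF1 and NUP50 loss by 2.28 (SE 0.55, adjusted p = 0.0169). Of all genes 8.13% and 7.38% differed in these 2 tests. From RANGAP1 loss at 2 h, untagged cells differed in ATF3 by -2.09 (SE 0.28, adjusted p = 0.00105) and in JUN by -1.50 (SE 0.23, adjusted p = 0.00372), beside 0.893% of all genes. From RANGAP1 loss at 8 h, ATF3 differed by -2.24 (SE 0.32, adjusted p = 0.000437) for NUP153 and -1.64 (SE 0.26, adjusted p = 0.000999) for NUP50, beside 10.4% and 9.69% of all genes. JUNB differed by 1.99 (SE 0.40, adjusted p = 0.00686) for TPR in the old libraries, beside 11.4%.

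FOSL2 had values below untreated cells upon NXF1 loss and in untagged DLD-1 cells given auxin, and above them upon loss of NUP153, NUP50 or RANGAP1. The differences for NXF1 were -0.89 (SE 0.13, adjusted p = 0.000348) from RANGAP1, -1.08 (SE 0.15, adjusted p = 0.000390) from NUP153 and -0.97 (SE 0.16, adjusted p = 0.000991) from NUP50. Those for untagged cells were -0.98 (SE 0.13, adjusted p = 0.000831) from RANGAP1, -1.16 (SE 0.15, adjusted p = 0.00284) from NUP153 and -1.05 (SE 0.16, adjusted p = 0.00407) from NUP50. Libraries without mitochondrial counts made up the NXF1 and DLD-1 groups and libraries with them the other 3. Plain AID-TPR and AID-GANP libraries also lacked them, and FOSL2 there had log2 fold changes of 0.06 and 0.00. The part of counting in this result was not tested.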

How the results depend on the processing

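The number of members called or differing moved by over 1.5 times as follows, in edgeR except where DESeq2 is named, with the share of all tested genes called in the same fit in parentheses; the causes were not tested. With DESeq2 the number was 1 for NUP153 2 h (0.303%), 3 for NUP50 3 h (0.618%), 3 for NUP50 9 h (0.966%), 2 for NUP50 9 h minus 3 h (0.483%), 3 for TPR old 2 h (2.39%), 6 for TPR old 8 h (10.7%) and 1 for TPR minus NUP50 (1.19%). With no filter on low counts it was 6 for ActD alone (15.2%), 1 for DLD-1 2 h (0.138%), 1 for NUP153 2 h (0.289%), 5 for NUP153 8 h (2.15%), 3 for NUP50 3 h (0.648%), 3 for NUP50 9 h (1.1%), 2 for NUP50 9 h minus 3 h (0.502%), 4 for NXF1 2 h (4.64%), 4 for TPR 2 h (0.74%), 7 for TPR old 2 h (2.44%), 7 for TPR old 8 h (5.49%), 3 for auxin with ActD minus without (0.717%), 4 for TPR minus GANP (2.99%), 3 for TPR minus NUP153 (0.635%), 5 for TPR minus NUP50 (0.608%), 3 for TPR minus NXF1 (1.74%), 4 for TPR minus RANGAP1 (0.54%) and 3 for TPR plain minus old (0.157%). With the replicate block it was 1 for DLD-1 2 h (0.269%), 1 for NUP153 2 h (0.752%), 3 for NUP50 3 h (1.02%), 3 for NUP50 9 h (2.94%), 2 for NUP50 9 h minus 3 h (1.21%), 4 for NXF1 2 h (9.66%), 4 for TPR 2 h (2.34%), 5 for TPR old 2 h (1.64%), 6 for TPR old 8 h (9.44%), 2 for auxin with ActD minus without (1.62%), 4 for TPR minus GANP (22.1%), 3 for TPR minus NUP153 (4.58%), 5 for TPR minus NUP50 (3.12%), 4 for TPR minus NXF1 (13.3%) and 5 for TPR minus RANGAP1 (5.31%). In 1 fit over 66 libraries it was 2 for GANP 3 h (14.2%), 1 for RANGAP1 2 h (0.803%), 4 for TPR old 2 h (9.88%) and 5 for TPR old 8 h (19%). With a symmetric 1.3-fold rule it was 2 for NXF1 2 h (11.1%). With the old AID-TPR libraries it was 0 for TPR minus GANP (0.455%) and 1 for TPR minus NUP50 (0.174%). With these but without auxin 2 h old2 it was 0 for TPR minus GANP (1.43%), 1 for TPR minus NUP50 (0.382%) and 2 for TPR minus NXF1 (1.54%). Without both old2 auxin libraries it was 2 for TPR old 8 h minus 2 h (4.67%). In comparisons whose libraries share only a number, the block is no sign of a stronger effect. The settings with old2 left out, and the old AID-TPR libraries against GANP and NXF1, were chosen after the data were seen.

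Without 1 library at a time the count ran from 2 to 4 for ActD alone, 3 to 5 for GANP, 0 to 1 and 2 to 4 for NUP153 at 2 and 8 h and 2 to 6 between them. It ran from 0 to 1 for NUP50 at 3 h, at 9 h and between them, 1 to 4 for NXF1, 1 to 3 and 3 to 4 for RANGAP1 at 2 and 8 h and 1 to 3 between them. It ran from 0 to 1 for TPR at 2 h, 0 to 2 and 1 to 5 in old AID-TPR cells at 2 and 8 h, 0 to 1 in TPR minus NUP153 and minus NXF1 and 0 to 2 minus RANGAP1.

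The sign of a member turned, with the value called in either fit or beyond 1 SE in both, as follows. Against plain untreated libraries ActD alone gave log2 fold changes of -0.62 for ATF3, -1.08 for FOS, -1.27 for FOSB and -0.92 for JUN. With the old AID-TPR libraries, FOS gave 0.13 in TPR minus GANP, FOSL1 0.36 in TPR minus NUP50 and 0.39 minus RANGAP1, and JUNB 0.64 minus NUP50 and 0.74 minus GANP. With these but without auxin 2 h old2, FOS gave 0.0086 in TPR minus GANP, FOSL1 0.51 minus NUP50 and 0.53 minus RANGAP1, and FOSL2 0.23 minus RANGAP1. Over all members and comparisons, 66 of 1536 values lost the call without 1 library, 28 gained one and 1442 kept their call or lack of one. The sign turned in 141 of them, none called in either fit. Under the other settings 16 of 1568 lost the call, 130 gained one and 56 turned sign, 4 of these called in either fit. A library left out leaves 2 in its group, whose spread edgeR pools with the other group. FOSB, with as few as 9 reads in an untreated library, is limited by depth.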
